A study of Mus musculus with 8 samples.

Results

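The genes described here are 42 factors of ribosome biogenesis, the making of ribosomal subunits, which begins in the nucleolus. They were taken by gene symbol from the table of gene counts, where they were 42 of 31815 genes, and all 42 had counts in every library and passed the filter on low counts. By role they comprised 6 nucleolar proteins and chaperones, 3 subunits of RNA polymerase I, 4 proteins of box C/D small nucleolar ribonucleoproteins (snoRNPs), 4 proteins of box H/ACA snoRNPs, 10 factors of the small subunit and 15 factors of the large subunit. Their levels were followed in splenic CD8 T cells of OT-I mice, C57BL/6 animals with a transgenic T cell receptor for an ovalbumin peptide.

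All cells had been naive, were cultured with the peptide for 3 days, were exposed to a retroviral vector at 24 h and were sorted on day 5. The vector encoded either TOXFL, the full-length form of the HMG-box nuclear protein TOX, or TOXdeltaN, the other protein made from the Tox gene. GFP behind an internal ribosome entry site marked the cells that expressed a vector. The 4 groups were TOXFL-negative (GFP-negative cells of TOXFL cultures), TOXFL-positive (the top 20% of GFP-positive cells of those cultures), TOXdeltaN-negative and TOXdeltaN-positive, with 2 libraries each. Positive and negative cells of a culture therefore differed in TOX, in the vector and in the sort together, and cells with a vector for GFP alone were not analysed here. The labels do not give the age of the mice or say whether the replicates were separate animals or cultures, so the spread between them may be technical. Each library was made from 8 ng of RNA and held between 25059112 and 31240067 counts.

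Growing and dividing cells spend much of their transcription on ribosomes. RNA polymerase I copies the ribosomal DNA into a long precursor, snoRNPs guide the chemical modification of that RNA, and a large processome folds and cleaves it into the parts of the small and large subunits. Most of the proteins involved are encoded by genes that T cells turn up on activation, many of them targets of MYC, which binds with MAX to the E-box CACGTG. For that reason the E-box, which is its own reverse complement, was searched in the promoters of the factors.

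RefSeq promoter windows of 300 bases (250 before to 50 after the RefSeq start, GRCm38.p6) were found for 36 of the 42 factors. Here the start is that of RefSeq, and the GENCODE M21 gene models used elsewhere can start at another base. Those of Bop1, Fbl, Npm1, Rrp12, Rrs1 and Tcof1 were not matched. An E-box was found in 5 of the 36 genes (13.9%), against 11.7% of the tested genes with a window and 8.09% of all genes with a window. The 5 genes were Nop2 and Pes1 of the large subunit group and Wdr43, Utp20 and Ltv1 of the small subunit group. Each site is given with up to 12 bases on each side, 5′ to 3′ on the strand of the gene, with the E-box in capitals.
Nop2 (chr6:125131811-125131840, plus strand, 60 bases before the start): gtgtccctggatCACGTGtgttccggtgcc
Wdr43 (chr17:71616220-71616249, plus strand, from base 18 after the start): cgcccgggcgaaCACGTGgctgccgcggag
Pes1 (chr11:3963965-3963994, plus strand, from base 3 after the start): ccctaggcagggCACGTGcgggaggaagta
Utp20 (chr10:88826765-88826789, minus strand, from base 38 after the start): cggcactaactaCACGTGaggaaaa
Ltv1 (chr10:13193092-13193121, minus strand, from base 29 after the start): gccctgtggaccCACGTGtggagctgccgg

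In the window of Npm3, the factor with the largest difference between groups, these letters were not found. The 250 bases before its RefSeq start (chr19:45749566-45749815, minus strand) are given whole in lower case, because Npm3 had the lowest log2 fold change of the factors with TOXFL. The GENCODE M21 model of Npm3 reaches to base 45749591, into these bases.
Npm3: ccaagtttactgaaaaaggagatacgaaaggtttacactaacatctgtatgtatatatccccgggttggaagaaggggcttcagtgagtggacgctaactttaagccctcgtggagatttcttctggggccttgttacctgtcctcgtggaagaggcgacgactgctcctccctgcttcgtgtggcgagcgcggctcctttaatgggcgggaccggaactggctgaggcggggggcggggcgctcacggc

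Tox itself, which checks the GFP status in the labels, had between 21.8 and 34.4 CPM (counts scaled to a common library total) in the 4 negative libraries. It had between 82.9 and 126.3 CPM in the 4 positive ones, vector and endogenous reads together. The positive groups overlapped (104.8 and 126.3 CPM with TOXFL, 107.2 and 82.9 with TOXdeltaN), so Tox does not check which construct a library held. The CD8 T cell markers Cd3d, Cd3e, Cd3g, Cd8a and Cd8b1 summed to between 3037 and 3511 CPM in every library. Within that sum Cd8b1, which encodes the CD8 beta chain, stood at 742 and 667 CPM in TOXFL-negative, 614 and 493 in TOXFL-positive, 788 and 657 in TOXdeltaN-negative and 624 and 568 in TOXdeltaN-positive libraries. The blocked edgeR fit called Cd8b1 lower with TOXFL (log2 −0.35, adjusted p = 0.0345) and on average (log2 −0.31, adjusted p = 0.00611), and its part in the values of the factors was not tested. Markers of other cells were low, with sums of 13.99 to 17.49 CPM for B cells and 2.37 to 6.50 for myeloid cells. The sums were 1.00 to 6.13 for CD4 T and NK cells and 0.135 to 4.34 for erythroid cells. The listed marker of gamma-delta T cells, Trdc, had no counts row, so these cells were not checked. The B cell factor Pax5, the macrophage marker Adgre1 and Siglech were at 0 in all 8 libraries. One library, TOXdeltaN-positive replicate 2, stood apart in the levels of the factors.

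The factors as a set differed little between the 8 libraries. Their CPM summed to 6476 and 6780 in the TOXFL-negative libraries and to 6486 and 6555 in the TOXFL-positive. The sums were 6707 and 6928 in the TOXdeltaN-negative libraries and 6626 and 7241 in the TOXdeltaN-positive. The groups of each construct overlapped in this sum, and the highest value belonged to TOXdeltaN-positive replicate 2. The ratio of a factor's highest library to its lowest had a median of 1.27, from 1.08 in Bysl to 5.16 in Npm3, where the median over the 9054 tested genes with a mean above 8 CPM was 1.35. In 11 factors the ratio was 1.5 or more. TOXdeltaN-positive replicate 2 was the highest library for 18 factors and the lowest for 8.

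**Figure D1:**
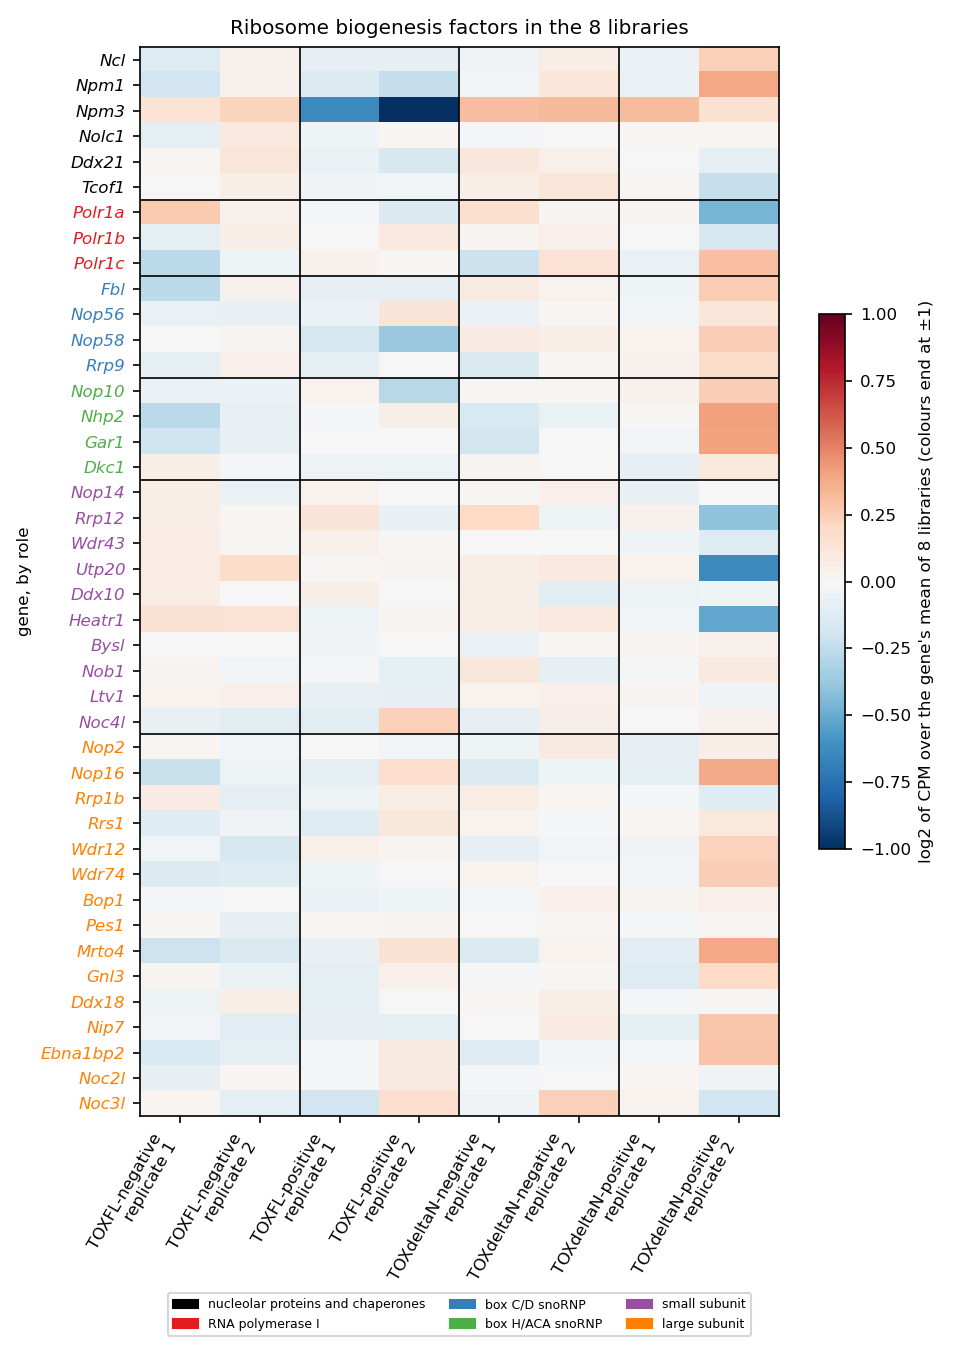
Level of each of the 42 factors in each of the 8 libraries, as the log2 of CPM over the gene's mean of the 8 libraries, with genes in rows grouped by role and libraries in columns. Most cells are pale, the row of Npm3 is dark blue in the TOXFL-positive libraries only, and the last column (TOXdeltaN-positive replicate 2) holds both the reddest and many of the bluest cells.

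The first comparison asked how TOXFL-positive cells differed from TOXFL-negative cells. Npm3 stood lowest of the factors in this comparison. It encodes a nucleoplasmin-family protein of the nucleolus, related to the histone chaperone encoded by Npm1. Npm3 (ENSMUSG00000056209.7, GRCm38 chromosome 19, 45747734 to 45749591, minus strand) had 30.4 and 32.3 CPM in TOXFL-negative cells and 17.7 and 6.69 CPM in TOXFL-positive cells. TOXdeltaN-negative cells had 34.2 and 34.5 CPM of it, and TOXdeltaN-positive cells 34.3 and 30.7 CPM. Both TOXFL-positive libraries thus lay below all 6 others, and they also differed from each other by more than any of the other 6 libraries did. The counts behind these values were 816, 916, 524, 213, 999, 1028, 1004 and 769, in the order of the groups above.

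The fall of Npm3 with TOXFL depended on how the replicates were treated. The edgeR quasi-likelihood test on group means gave a log2 fold change of −1.36 (SE 0.329) and an adjusted p of 0.145, which is not called at the threshold of 0.05. With the replicate number as a block, a pairing seen in the libraries but not explained by the labels, edgeR gave −1.42 (SE 0.284, adjusted p = 0.0273), and Npm3 was called lower. The log2 fold change was negative in all 8 fits that left out a library, from −2.22 to −0.83 in the blocked fits, and the adjusted p was under 0.05 in 3 of these 8, without TOXFL-positive replicate 1 or either TOXdeltaN-positive library. It was not called without either TOXFL-negative library, TOXFL-positive replicate 2 (−0.83, adjusted p = 0.0604) or either TOXdeltaN-negative library, with adjusted p up to 0.197. The antisense gene Gm15491, which shares 84 exonic bases with Npm3, had 0 to 7 counts per library, although reads of both strands cannot be told apart in these libraries. A processed pseudogene, Npm3-ps1, is 98.9% identical over 528 bases and has no row in the table, so the share of its reads in Npm3 was not tested. Beside Npm3, the mitochondrially encoded protein genes summed to 7069 and 4414 CPM in the TOXFL-positive libraries against 8297 and 8375 CPM in the TOXFL-negative, in the same order of libraries. Their part in the Npm3 value was not tested.

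No other factor was called with TOXFL. Without the block edgeR called 0 of 42 factors, where it called 0.045% of all tested genes. In that fit 2 of the 42 had an unadjusted p under 0.05, as had 1790 of all 13329 genes. DESeq2 also called 0 factors, where it called 2.67% of the genes it gave an adjusted p, and limma-voom called 0, where it called 0.0375% of all genes. With the block edgeR called Npm3 alone, where 3.48% of all genes were called and 1.97% were called lower. The median log2 fold change of the 42 was −0.01, with 19 above 0 and 23 below (21 and 21 with upper-quartile scaling), against a median of 0.00 over all 13329 tested genes. In bulk RNA such as this, fewer cells of a kind and less RNA per cell cannot be told apart.

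The 6 nucleolar proteins all had a negative log2 fold change with TOXFL, and for 5 of them it was small. Ncl, which encodes the precursor-binding protein nucleolin, stood at 995 and 1123 CPM in TOXFL-negative and at 1028 and 1028 CPM in TOXFL-positive libraries (log2 −0.04, SE 0.109). Npm1 stood at 501 and 590 CPM and at 521 and 486 CPM (log2 −0.12, SE 0.146). The groups overlapped for both genes. The RNA helicase gene Ddx21 stood at 171 and 182 CPM in TOXFL-negative and at 160 and 150 CPM in TOXFL-positive libraries (log2 −0.19, SE 0.0908, adjusted p = 0.415), without overlap. Tcof1, which encodes the RNA polymerase I partner treacle, and Nolc1, a snoRNP chaperone gene, had log2 fold changes of −0.06 and −0.01.

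Among the box C/D proteins, which methylate the precursor at sites chosen by a guide RNA, Nop58 stood lowest. This scaffold gene had 203 and 207 CPM in TOXFL-negative and 181 and 157 CPM in TOXFL-positive libraries (log2 −0.28, SE 0.105, adjusted p = 0.294). In the blocked fit it was called only when either TOXdeltaN-positive library was left out. Its partner Nop56 went the other way, from 336 and 334 to 337 and 384 CPM (log2 0.11, SE 0.0971), and the methyltransferase gene Fbl stayed near 0 (log2 0.02, SE 0.128). Fbl shares 690 nearly identical bases with a stretch of Tulp4, so its split of reads is uncertain. The box H/ACA genes, whose proteins turn uridine into pseudouridine, gave log2 fold changes of 0.13 for Gar1 (50.6 and 55.3 CPM in TOXFL-negative, 57.8 and 58.2 CPM in TOXFL-positive libraries), −0.05 for Nop10 and −0.08 for the pseudouridine synthase gene Dkc1. Nhp2, of the same group, stood at 123 and 141 CPM in TOXFL-negative and at 146 and 154 CPM in TOXFL-positive libraries, without overlap (log2 0.18, SE 0.134).

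The subunits of RNA polymerase I did not move as a unit with TOXFL. Polr1a, the gene of the largest subunit, stood at 112 and 96.3 CPM in TOXFL-negative and at 92.7 and 84.9 CPM in TOXFL-positive libraries (log2 −0.23, SE 0.153, adjusted p = 0.562). Polr1c, whose product RNA polymerase III shares, stood at 33.4 and 38.8 CPM and at 41.4 and 40.5 CPM (log2 0.18, SE 0.158, adjusted p = 0.671). Neither pair of groups overlapped, in opposite directions. Polr1b had a log2 fold change of 0.06.

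For the subunit assembly factors the log2 fold changes with TOXFL ran from −0.16 to 0.22. In the small subunit group 8 of 10 were below 0 (6 with upper-quartile scaling), with a median of −0.02 and Heatr1 lowest at −0.16. Heatr1 stood at 214 and 213 CPM in TOXFL-negative and at 187 and 195 CPM in TOXFL-positive libraries. Utp20 stood at 82.7 and 89.1 against 79.3 and 80.2 CPM, and Rrp12 at 108 and 104 against 113 and 98.0 CPM. In the large subunit group 11 of 15 were above 0, with a median of 0.05. The highest were Mrto4, whose product holds a place in the early large subunit for a stalk protein, at 41.2 and 43.0 CPM in TOXFL-negative and 45.3 and 52.9 CPM in TOXFL-positive libraries (log2 0.22, SE 0.159). Nop16 followed, at 59.0 and 66.6 CPM and at 64.4 and 77.9 CPM (log2 0.18, SE 0.16), with overlapping groups. Over the whole set the groups did not overlap for 9 factors that stood higher, where 24.9% of all genes did so, and for 11 that stood lower, where 25.5% did so. Of the 42, these were 21.4% and 26.2%, near the shares of all genes.

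**Figure D2:**
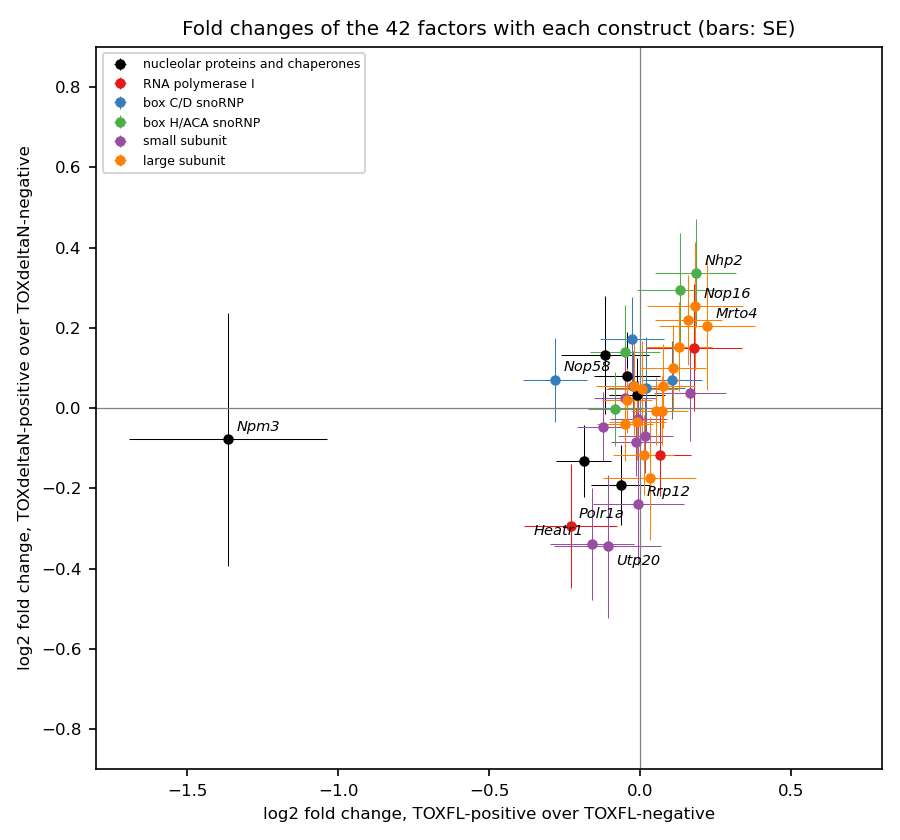
Log2 fold change of each of the 42 factors with TOXFL (horizontal axis) and with TOXdeltaN (vertical axis) from edgeR without the replicate block, with bars of 1 SE and colours for the roles. Npm3 lies at −1.36 on the horizontal axis and −0.08 on the vertical, and the other 41 lie between −0.34 and 0.34 on both axes.

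**Figure D3:**
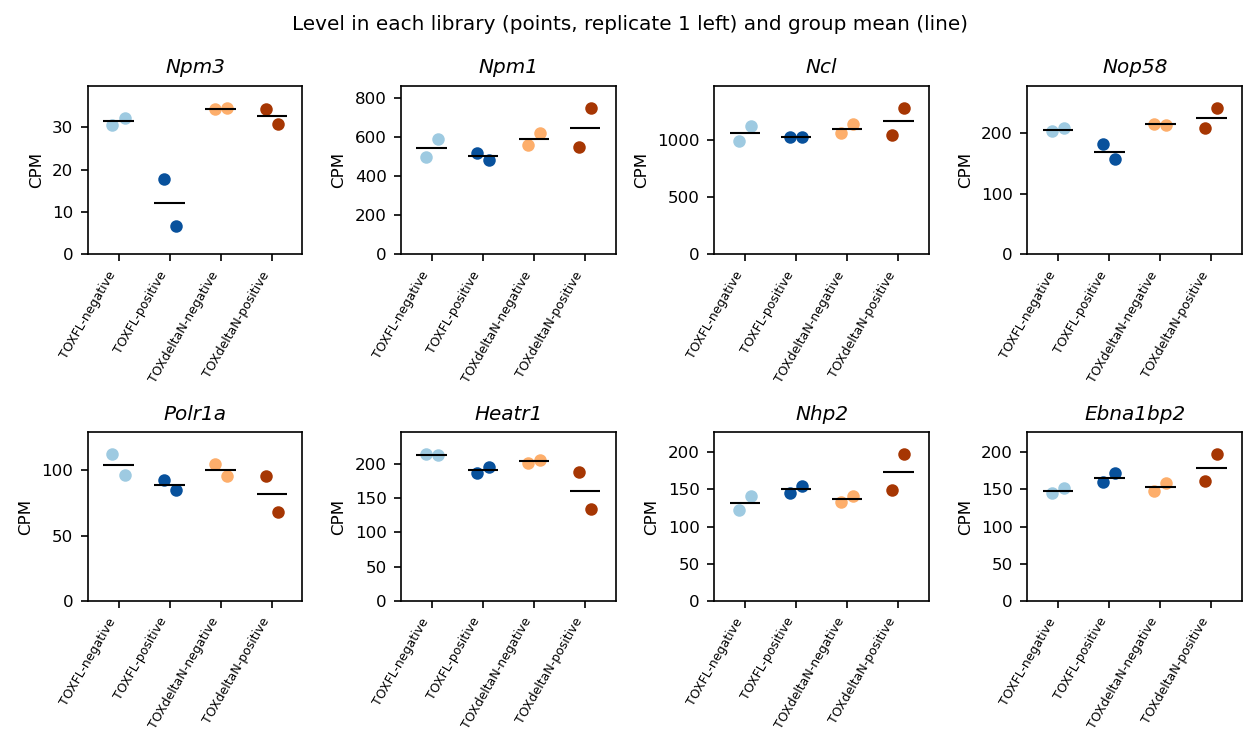
CPM of 8 factors in each library (points, replicate 1 to the left) and the mean of each group (line), with axes from 0. Npm3 shows the TOXFL-positive points at 17.7 and 6.69 CPM below all others, while Polr1a, Heatr1, Nhp2 and Ebna1bp2 show TOXdeltaN-positive replicate 2 far from replicate 1.

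The second comparison set TOXdeltaN-positive against TOXdeltaN-negative cells. No factor was called by edgeR, without the block (0.03% of all genes called) or with it (1.65%, of which 0.773% of all genes higher and 0.878% lower), and DESeq2 (1.05% of the genes it gave an adjusted p) and limma-voom (0.0375%) called 0 factors as well. An unadjusted p under 0.05 was found for 2 factors without the block and 7 with it. Of all 13329 tested genes, 1632 and 2574 had one. The median of the 42 was 0.03, with 23 above 0 and 19 below, against a median of 0.01 over all tested genes. Npm3 had a log2 fold change of −0.08 (SE 0.315, adjusted p = 0.936).

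The factors at the upper end were genes of short proteins. Nhp2, which encodes a core protein of box H/ACA snoRNPs, had 133 and 141 CPM in TOXdeltaN-negative and 149 and 197 CPM in TOXdeltaN-positive libraries (log2 0.34, SE 0.134, adjusted p = 0.382). Its partner Gar1 stood at 51.3 and 57.9 CPM and at 57.0 and 77.0 CPM (log2 0.29, SE 0.142). Nop16 went from 62.6 and 66.8 CPM to 64.5 and 89.9 CPM (log2 0.25, SE 0.16). For each of these genes the high value belonged to TOXdeltaN-positive replicate 2, and replicate 1 lay in or next to the range of the negative libraries. Ebna1bp2, a large subunit factor gene, showed the same, with 148 and 159 CPM in the negative and 161 and 197 CPM in the positive libraries (log2 0.22, SE 0.112).

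The factors at the lower end were genes of long proteins. Utp20, which encodes a scaffold of the small subunit processome, had 82.3 and 84.3 CPM in TOXdeltaN-negative and 80.6 and 50.5 CPM in TOXdeltaN-positive libraries (log2 −0.34, SE 0.178). Heatr1, another processome scaffold gene, stood at 202 and 206 CPM and at 188 and 134 CPM (log2 −0.34, SE 0.139, adjusted p = 0.389). Polr1a stood at 105 and 95.7 CPM and at 95.2 and 68.1 CPM (log2 −0.29, SE 0.154). Rrp12, an export factor gene, stood at 118 and 99.6 CPM and at 106 and 78.0 CPM (log2 −0.24, SE 0.151). Again the low values belonged to TOXdeltaN-positive replicate 2.

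When TOXdeltaN-positive replicate 1 was left out, edgeR called 8 factors with TOXdeltaN (Ebna1bp2, Gar1 and Nhp2 higher, Utp20, Heatr1, Polr1a, Rrp12 and Tcof1 lower), and 11.3% of all genes were called in that fit. When replicate 2 was left out, 0 factors were called. With all libraries, the groups did not overlap for 6 factors that stood higher, against 21.1% of all genes, and for 11 that stood lower, against 20.8%.

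The pattern by protein length was measured over all 42 factors, split at the median coding length of 1581 bases into 21 short and 21 long genes. In the TOXdeltaN-positive group the log2 ratio of replicate 2 to replicate 1 had a median of 0.27 in the short genes, with 19 of 21 above 0. In the long genes it was −0.05, with 10 of 21 above 0. Pearson's r of this ratio with log coding length was −0.77 across the 42 genes, which share those 2 libraries and are not independent, and −0.54 across 8922 genes with a mean above 8 CPM. In the other 3 groups r across the factors was −0.28, 0.21 and −0.26.

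The TOXdeltaN fold changes followed the same axis. They had a median of 0.10 in the short genes, 18 of 21 above 0, and of −0.07 in the long genes, 5 of 21 above 0. Their r with coding length was −0.81 across the 42 and −0.45 across the 8922 genes. Without TOXdeltaN-positive replicate 2 the medians were 0.00 and −0.05 and r across the 42 was −0.36. With offsets for the coding-length trend of each library and the replicate block, the medians were 0.05 and 0.00 and r across the 42 was −0.34. The TOXFL fold changes had an r of 0.01 across the 42 and of −0.26 across the 8922 genes. Npm3, a short gene with the lowest TOXFL value, weighed on the first of these, and across the other 41 factors r was −0.43. The comparison of the GFP-negative groups, which holds neither TOXdeltaN-positive library, also had a trend with coding length. Its r was 0.54 across the 42 and 0.34 across the 8922 genes.

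**Figure D4:**
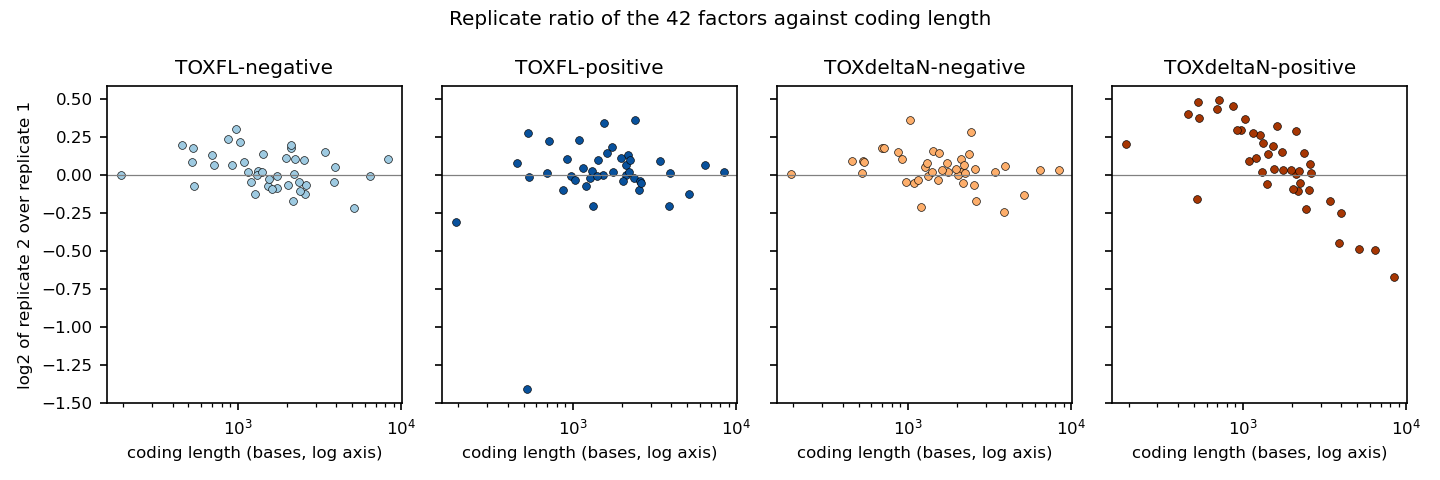
Log2 ratio of replicate 2 to replicate 1 for the 42 factors (vertical axis) against coding length in bases (horizontal log axis), in a panel for each group. The points slope down in the TOXdeltaN-positive panel (r = −0.77) and lie around 0 in the other panels, apart from Npm3 at the bottom of the TOXFL-positive panel.

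The third comparison averaged the effects of both constructs, so that 4 positive libraries were set against 4 negative ones. It shares all its libraries with the comparisons above and adds precision, not independent samples. Without the block edgeR called 0 of 42 factors, where 2.42% of all genes were called. In that fit 6 factors had an unadjusted p under 0.05, as had 2920 of all 13329 genes. DESeq2 called 0 factors, where 9.62% of the genes with an adjusted p were called, and limma-voom called 0, where 2.56% were. With the block, 3 factors were called, where 12.7% of all genes were called, so that the share of the factors lay below that of all genes. Npm3 (log2 −0.76, SE 0.195, adjusted p = 0.0332) and Polr1a (log2 −0.27, SE 0.0721, adjusted p = 0.0389) were lower, where 6.69% of all genes were called lower. Nhp2 was higher (log2 0.26, SE 0.0677, adjusted p = 0.0362), where 6.04% were.

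The averaged value of Npm3 joined −1.42 with TOXFL and −0.09 with TOXdeltaN. For Polr1a and Nhp2 the call was lost on leaving out most of the single libraries. In the blocked fits both were called in 2 of 8 fits that left out a library, without either TOXdeltaN-positive library, and the adjusted p reached 0.224. With the length offsets Nhp2 had an adjusted p of 0.0578 and Polr1a of 0.122, while Npm3 remained called (log2 −0.85, adjusted p = 0.00879). Npm3 was called in 5 of 8 blocked fits that left out a library and not without TOXFL-negative replicate 2 or either TOXdeltaN-negative library (adjusted p up to 0.163).

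The 4 positive and 4 negative libraries did not overlap for 7 factors. Nhp2 and Ebna1bp2 stood higher in all positive libraries, where 8.22% of all genes did. Polr1a, Utp20, Ddx21, Heatr1 and Ltv1 stood lower, where 8.08% did. Ltv1, an assembly factor gene of the small subunit, had 69.9 and 70.6 CPM in TOXFL-negative and 64.7 and 64.3 CPM in TOXFL-positive libraries. It had 69.7 and 70.6 CPM in TOXdeltaN-negative and 69.3 and 66.6 CPM in TOXdeltaN-positive libraries (average log2 −0.08, SE 0.0613, adjusted p = 0.445). Its groups were separate by less than 1 CPM at the closest point.

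The difference of the effects, TOXFL minus TOXdeltaN, tested whether the constructs acted unequally on a factor. No factor and no gene was called by edgeR, with or without the block (0% of genes). DESeq2 called 0 factors and 0.0525% of genes, and limma-voom called 0 factors and 0% of genes. Npm3 had the largest difference among the factors (log2 −1.29, SE 0.454, adjusted p = 1.00), followed by Nop58 (log2 −0.35, SE 0.148). These were the only 2 factors with an unadjusted p under 0.05, where 318 of all 13329 genes had one. Npm1 was next (log2 −0.25, SE 0.207), with 561 and 624 CPM in TOXdeltaN-negative and 548 and 751 CPM in TOXdeltaN-positive libraries. At the other end stood Utp20 (0.24, SE 0.251), Rrp12 (0.23, SE 0.214) and Noc3l (0.21, SE 0.216), a large subunit factor gene. Noc3l had 33.0 and 30.6 CPM in TOXFL-negative, 28.5 and 36.6 in TOXFL-positive, 31.5 and 38.3 in TOXdeltaN-negative and 33.3 and 28.5 in TOXdeltaN-positive libraries, all overlapping. Without TOXFL-positive replicate 1 the difference for Npm3 was −2.15 (adjusted p = 0.0305), and without TOXFL-positive replicate 2 it was −0.74 (adjusted p = 1.00). The median SE of the difference over the 42 was 0.15 on the log2 scale, which sets the size of difference that could be seen.

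The positive groups were also set against each other directly. Without the block 0 factors and 0% of all genes were called, and with the block 0 factors and 0.0075% of all genes. DESeq2 called 0 factors and 0.143% of genes, and limma-voom called 0 factors and 0% of genes. By edgeR without the block 768 of all 13329 genes had an unadjusted p under 0.05. Among them were 4 of the 42 factors, all of them lower in TOXFL-positive cells. These were Npm3 (log2 −1.42, SE 0.329), Nop58 (−0.41, SE 0.105), Npm1 (−0.37, SE 0.146) and the box H/ACA gene Nop10 (−0.26, SE 0.117). Nop58 stood at 181 and 157 CPM in TOXFL-positive and at 209 and 241 CPM in TOXdeltaN-positive libraries, and its adjusted p was 0.822. Npm1 stood at 521 and 486 CPM against the 548 and 751 CPM above, and Nop10 at 161 and 130 CPM against 163 and 187 CPM. The highest value of each of these 3 genes belonged to TOXdeltaN-positive replicate 2. Without that library the log2 differences were −0.12 for Npm1 (SE 0.113), −0.16 for Nop10 (SE 0.118) and −0.31 for Nop58 (SE 0.0959). The highest differences between the positive groups, 0.28 for Utp20, 0.25 for Heatr1 and 0.19 for Rrp12, were −0.02, 0.02 and −0.01 without it.

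The median of the 42 between the positive groups was −0.06, with 28 below 0, against 0.01 over all genes. The groups did not overlap for 10 factors that were lower in TOXFL-positive cells, where 16.1% of all genes were, and for 3 that were higher, where 15.9% were. By coding length the short genes had a median of −0.12 with 1 of 21 above 0 and the long genes of 0.05 with 13 of 21 above 0. Without TOXdeltaN-positive replicate 2 these medians were 0.00 and 0.02.

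The GFP-negative groups came from cultures given different vectors and served as the background of these comparisons. No factor and 0% of all genes were called by edgeR, and no factor had an unadjusted p under 0.05 without or with the block. Of all 13329 genes, 328 and 546 had one. DESeq2 called 0 factors and 0.06% of genes, and limma-voom called 0 factors and 0% of genes. The median of the 42 was −0.04, with 32 below 0, where the median SE of a factor was 0.106. The 42 share the same libraries and are not independent, so the count of signs is not a test. All genes had a median of 0.00. The groups did not overlap for 9 factors that were lower, where 16.6% of all genes were, and for 2 that were higher, where 16.8% were. Fbl had the lowest value (log2 −0.16, SE 0.128), at 106 and 130 CPM against 134 and 130 CPM. Wdr74, a large subunit factor gene, followed at 58.0 and 58.7 CPM against 65.3 and 63.8 CPM (log2 −0.15, SE 0.108). Noc3l had a log2 difference of −0.13 (SE 0.153). At the upper end Heatr1 (214 and 213 CPM against 202 and 206 CPM) and the helicase gene Ddx10 (85.7 and 81.8 CPM against 85.1 and 75.6 CPM) differed by only 0.07 and 0.06 on the log2 scale.

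Beyond the 42, another 117 genes of ribosome biogenesis were listed and all were tested. They comprised RNA polymerase I and its initiation factors, snoRNP assembly factors, further factors of both subunits and the RNA exosome that trims the precursor. Without the block 0 of 117 were called with TOXFL, 0 with TOXdeltaN and 3 in the averaged comparison (2.56%, near the 2.42% of all genes). Exosc6, the gene of an RNA exosome core subunit, rose with the constructs on average (log2 0.73, SE 0.112, adjusted p = 0.0216). Its level was 13.9 and 11.3 CPM in TOXFL-negative, 22.2 and 23.5 CPM in TOXFL-positive, 19.5 and 20.6 CPM in TOXdeltaN-negative and 26.1 and 34.4 CPM in TOXdeltaN-positive libraries. The negative groups themselves stood apart for this gene (log2 −0.67, adjusted p = 1.00).

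Pih1d1, which encodes a subunit of a chaperone complex for snoRNP assembly, rose on average too (log2 0.42, SE 0.074, adjusted p = 0.0268). It had 41.6 and 42.2 CPM in TOXFL-negative and 53.1 and 57.6 CPM in TOXFL-positive libraries, then 48.6 and 46.1 CPM in TOXdeltaN-negative and 59.5 and 68.3 CPM in TOXdeltaN-positive. Mdn1, the gene of a very large ATPase that strips assembly factors from the large subunit, fell (log2 −0.53, SE 0.0858, adjusted p = 0.0225). Mdn1 had 74.9 and 68.0 CPM in TOXFL-negative and 45.7 and 37.0 CPM in TOXFL-positive libraries, then 56.8 and 57.0 CPM in TOXdeltaN-negative and 44.7 and 49.4 CPM in TOXdeltaN-positive. Its averaged value joined −0.79 with TOXFL and −0.27 with TOXdeltaN, the latter 0.00384 with the length offsets and the block. Its negative groups stood apart too (log2 0.33, TOXFL-negative over TOXdeltaN-negative). For all 3 genes the 4 positive libraries lay on 1 side of their own negative groups. The genes were named because they were called on these same libraries, so this adds no support. With TOXFL 24.9% of all genes stood higher and 25.5% lower without overlap, and with TOXdeltaN 21.1% and 20.8%.

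With the block, Exosc6 (log2 0.86, adjusted p = 0.0169) was called higher and Mdn1 (log2 −0.79, adjusted p = 0.00821) lower with TOXFL, 0 genes were called with TOXdeltaN, and 7 were called in the averaged comparison. The 2 called with TOXFL were 1.71% of the 117, against 3.48% of all genes, and the 7 were 5.98%, against 12.7% of all genes. The added ones were Znhit3 (log2 0.32) and Ruvbl2 (log2 0.25), which act in snoRNP assembly, and the processome genes Pdcd11 (log2 −0.27) and Nol6 (log2 −0.31). These 4 averaged calls held in 3, 2, 2 and 2 of the 8 blocked fits that left out a library (adjusted p up to 0.223) and ended without either TOXFL-negative library, either TOXdeltaN-negative library or TOXFL-positive replicate 1, and all but that of Znhit3 also without TOXFL-positive replicate 2. The blocked averaged calls of Exosc6 and Mdn1 held in 8 of 8, and that of Pih1d1 in 7, ending without TOXdeltaN-negative replicate 2. With TOXFL, the call of Exosc6 held in 3 of 8, ending without TOXFL-negative replicate 2 or either TOXFL-positive or TOXdeltaN-negative library, and that of Mdn1 held in 5 of 8, ending without either TOXFL-negative library or TOXFL-positive replicate 2. With the length offsets Mdn1 was no longer called on average (log2 −0.26, adjusted p = 0.156) nor with TOXFL (adjusted p = 0.0809), and Pdcd11 was not (adjusted p = 0.19), while the other 5 were. Without the block each of the 3 averaged calls held in 3 of 8 fits that left out a library and ended without either TOXFL-negative or either TOXdeltaN-negative library or TOXFL-positive replicate 2 (adjusted p up to 0.154). Of the 13 exosome genes 1, Exosc6, was called with TOXFL, with the block. The log2 fold changes of the 13 had a median of 0.13 with TOXFL, 13 above 0, and of 0.15 with TOXdeltaN, 10 above 0. Of all 13329 genes, 6587 were above 0 with TOXFL and 6775 with TOXdeltaN. The 13 share the same libraries and are not independent. Across the 8922 genes with a mean above 8 CPM, the TOXFL median was 0.04 in short and −0.06 in long genes. The part of coding length in the exosome values was not tested. The median over the 117 was 0.05 with TOXFL (73 above 0) and 0.05 with TOXdeltaN (68 above 0).

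**Figure D5:**
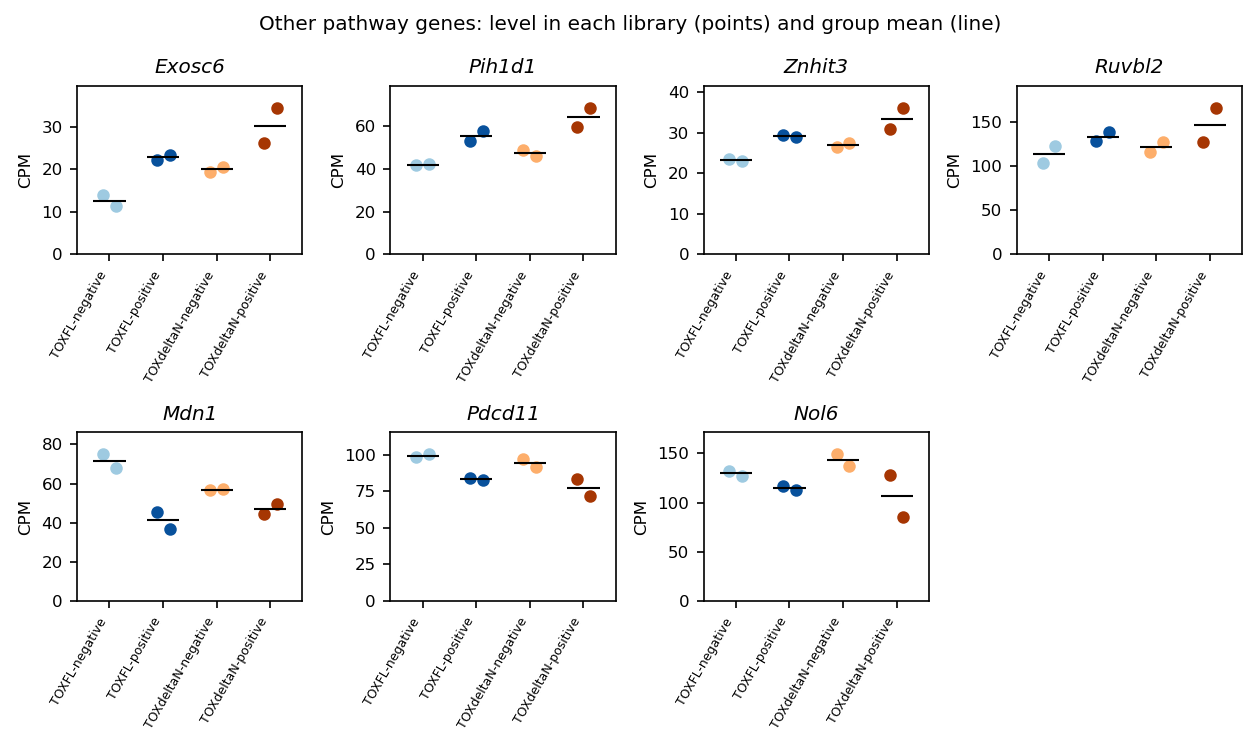
CPM of the 7 other ribosome biogenesis genes called in the averaged comparison with the replicate block, in each library (points) with the group means (lines) and axes from 0. Exosc6, Pih1d1, Znhit3 and Ruvbl2 have higher means in the positive than in the negative group of each construct, and Mdn1, Pdcd11 and Nol6 have lower ones.

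The gene models set limits to single values. Inside 6 factors (Ncl, Nop56, Nop58, Dkc1, Wdr43 and Gnl3) the annotation places 19 snoRNA genes, as many snoRNAs are made from introns of such genes. Exons of 16 factors overlap an antisense gene, and 7 factors (Ddx18, Pes1, Mrto4, Fbl, Npm1, Npm3 and Rrs1) have 14 near-identical copies elsewhere, of which only Tulp4, which holds the copy of Fbl, has a row in the table. The 42 factors had SEs between 0.0819 and 0.329 (median 0.106) with TOXFL, without the block. Npm3 with TOXFL, at −1.36 with an SE of 0.329, was not called in that fit. Changes of several SEs could therefore go uncalled with 2 libraries per group.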

How the data were processed

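RNA-seq libraries of 8 cell samples (4 groups of 2) were made, per the labels' protocols, by SMART-Seq amplification and Nextera XT tagmentation, which do not mark strand. The authors' tools were bcl2fastq 2.20, cutadapt, STAR 2.6.1 and RSEM 1.2.28 on GRCm38, per the submitters' processing notes. The deposited values are RSEM expected counts per gene in whole numbers without normalisation; the annotation release and the step that made them whole are not given in the sources used here. Of 31907 rows, 92 were spike-in rows at 0 and were left out. Of the gene identifiers, 31173 matched GENCODE M21 with their version and 31748 without it. Noc2l matched without its version, and its gene model was taken on that match.

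Groups were taken from the genetic modification in the labels. The counts were then analysed with edgeR 4.0.16 in R 4.3.3: filterByExpr by group (13329 genes kept), TMM factors from 0.989 to 1.02, and the quasi-likelihood F-test, with the 4 group means fitted to all 8 libraries, which therefore share 1 estimate of the spread. P-values were adjusted by Benjamini-Hochberg over all tested genes, and a gene is called at an adjusted p under 0.05. CPM use the TMM factors and the counts of the kept genes. The fits were tested on simulated data. The biological coefficient of variation was 0.132, and 0.0958 with the replicate number as a block.

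Every group has a replicate 1 and 2, a number whose meaning is not in the labels. Deviations from the group means were correlated between same-numbered libraries in all 6 pairs of groups (r 0.244 to 0.312 across tested genes, 0.254 to 0.487 across those above 8 CPM), so the pairing is inferred from the data. Alternatives were the block, RLE and upper-quartile factors, no filter, DESeq2 1.42.0, limma-voom (limma 3.58.1), each pair of groups alone, coding-length offsets with the block, and leaving out each library.

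Coding lengths came from the principal transcript of GENCODE M21, copies from a search with that transcript (at least 90% identity over 50% of it), and promoters from RefSeq (GRCm38.p6). Values in every library are given for factors called in any comparison for the 4 highest and 4 lowest fold changes of each construct and for the 3 at each end of the other comparisons, in the libraries of the comparisons they were named for, other pathway genes are named where called, and genes shown for the sake of contrast were chosen after their values were seen. The factors, the gene lists and these rules were chosen with earlier results of these data known. Sequences of the proteins were not analysed here.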

Additional observations from a re-analysis of the deposited data

How the results depend on the processing

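The numbers of factors called depended on the fit, while the median log2 fold change of the 42 moved little over all alternatives run, from −0.02 to 0.01 with TOXFL, −0.04 to 0.06 with TOXdeltaN, −0.09 to 0.01 between the positive groups and −0.07 to −0.01 between the negative groups. Among the factors named for a construct, 1 changed sign, Nop16 with TOXdeltaN, which was −0.00442 without TOXdeltaN-positive replicate 2. With TOXFL the count was 0. It became 1 (Npm3) with the replicate block, without the filter on low counts (678 genes called) and with length offsets and the block. Of all 13329 tested genes, the blocked fit called 464, and 839 with the length offsets added. The number of genes tested without the filter is not given here. On leaving out a library the count was highest with the block and without either TOXdeltaN-positive library, where Nop58 and Polr1a joined Npm3. With TOXdeltaN it was 0 under all other alternatives and 0 to 12 on leaving out a library, 8 without TOXdeltaN-positive replicate 1 and 12 with the block added. On average it was 0, then 3 with the block, 4 without the filter, 1 with length offsets and the block, and 0 to 13 on leaving out a library, the 9 and 13 without TOXdeltaN-positive replicate 1. For the difference of effects it was 0, then 1 (Npm3) without the filter, and highest with the block and without TOXdeltaN-positive replicate 1. For the positive groups it was 0, then 1 without the filter, and highest without TOXdeltaN-positive replicate 1. For the negative groups it was 0 throughout. A fit that leaves out a library assumes that the lone library of that group varies like the others. Apart from the TOXdeltaN fit described above, the share of all genes called in such fits is not given. Whether their calls of factors exceed that background was not tested. With all 8 libraries the block changed no call of a factor beyond Npm3 with TOXFL and Npm3, Polr1a and Nhp2 on average. With 2 libraries per group, a median SE of 0.106 limits what could be seen.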
